A study of Homo sapiens with 7 samples.

Results

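The genes described here are those of cholesterol synthesis and other targets of the sterol regulatory element-binding proteins (SREBPs), read across the clones of a pancreatic cancer cell line. They were chosen by name, with earlier results of these data known. A gene belonged if it stood on a list of 28 genes and had a probe set annotated to exactly 1 gene symbol. Each gene was read from whichever such probe set had the highest mean across the arrays. Of the 28 listed genes 26 could be read in this way, out of 19775 genes on the array, and they had 56 of the 41091 probe sets with 1 symbol. These 26 genes are called the members. FDFT1 and CYP51A1 had no such probe set and were not analysed here.

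The study measured RNA on 7 Affymetrix arrays of Panc1 cells, a human line established from pancreatic cancer, to find genes regulated by S100P, a small calcium-binding protein. The arrays labelled S100P overexpressing came from single-cell clones carrying the vector pcDNA3.1/S100P-V5-His, with arrays a and b of clone 1 and arrays a and b of clone 5. The control arrays came from single-cell clones carrying pcDNA3.1/V5-His without S100P, with arrays a and b of clone V3 and 1 array of clone V1. All clones were stable lines kept in DMEM with fetal bovine serum, and RNA was taken before the cells were confluent. Each arm thus rests on 2 clones, and a difference between arms cannot be told apart from differences between these single-cell clones. Serum brings cholesterol into the medium, and the labels name no treatment that changed it.

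Cells make cholesterol from acetyl-CoA through mevalonate, farnesyl diphosphate, squalene and lanosterol. SREBF1 and SREBF2 encode the SREBPs, factors held in the endoplasmic reticulum with SCAP and INSIG proteins while sterols are plentiful. When sterols fall they travel to the Golgi, are cleaved and enter the nucleus, where SREBP-2 mainly turns on sterol genes and SREBP-1 mainly fatty acid genes. Many of their target promoters also hold CCAAT boxes, bound by NF-Y, and GC boxes, bound by Sp1, which act together with the SREBPs.

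The promoter sequences of 5 members are shown because the results turn on these genes: MVD and SREBF1 passed the test between arms, SCD had 4 probe sets that all separated the arms, TM7SF2 was set apart by a single vector clone, and SREBF2 encodes the factor that drives the sterol genes. Each is the 250 bases before the annotated start, 5′ to 3′ on the gene's strand, from RefSeq on GRCh38.p14. The windows are chr16:88663092-88663341 on the minus strand for MVD, chr17:17836987-17837236 on the minus strand for SREBF1, chr22:41832855-41833104 on the plus strand for SREBF2, chr10:100346983-100347232 on the plus strand for SCD and chr11:65111622-65111871 on the plus strand for TM7SF2. Capitals mark a CCAAT box (CCAAT) or a sterol regulatory element (TCACNCCAC), each searched on both strands, so that ATTGG is a CCAAT box on the other strand.
MVD: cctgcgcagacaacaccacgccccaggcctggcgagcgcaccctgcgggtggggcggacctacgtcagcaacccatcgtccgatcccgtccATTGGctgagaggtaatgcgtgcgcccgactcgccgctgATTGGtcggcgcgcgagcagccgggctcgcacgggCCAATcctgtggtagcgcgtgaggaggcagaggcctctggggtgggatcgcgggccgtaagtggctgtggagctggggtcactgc
SREBF1: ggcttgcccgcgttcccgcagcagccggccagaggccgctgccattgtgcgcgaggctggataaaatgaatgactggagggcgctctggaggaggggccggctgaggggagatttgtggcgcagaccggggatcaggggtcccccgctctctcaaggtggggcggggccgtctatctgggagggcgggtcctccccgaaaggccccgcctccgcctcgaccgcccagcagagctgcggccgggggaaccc
SREBF2: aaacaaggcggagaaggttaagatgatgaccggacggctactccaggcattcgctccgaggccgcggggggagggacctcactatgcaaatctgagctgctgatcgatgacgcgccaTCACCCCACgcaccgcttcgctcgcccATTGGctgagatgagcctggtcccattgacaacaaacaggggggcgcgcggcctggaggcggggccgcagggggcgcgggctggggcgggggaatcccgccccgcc
SCD: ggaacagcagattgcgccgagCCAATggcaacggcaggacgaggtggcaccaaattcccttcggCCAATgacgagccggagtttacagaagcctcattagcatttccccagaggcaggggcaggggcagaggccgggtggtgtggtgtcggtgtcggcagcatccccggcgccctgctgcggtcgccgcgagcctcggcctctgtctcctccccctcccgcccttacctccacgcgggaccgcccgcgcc
TM7SF2: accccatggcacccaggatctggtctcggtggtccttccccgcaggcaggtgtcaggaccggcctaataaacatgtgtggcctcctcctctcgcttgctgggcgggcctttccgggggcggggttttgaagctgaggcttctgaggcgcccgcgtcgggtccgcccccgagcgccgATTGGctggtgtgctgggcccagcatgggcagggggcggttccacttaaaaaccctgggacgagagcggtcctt

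MVD had 3 CCAAT boxes in its window, at 159, 120 and 85 bases before the start, and SCD had 2, at 229 and 186 bases. TM7SF2 had 1 at 74 bases and SREBF2 had 1 at 106 bases, just after its sterol regulatory element. The SREBF1 window held neither motif in these letters, but 3 GC boxes (GGGCGG, both strands). Only this window was searched for SREBF1, so any other start of the gene is not covered. Over the 33 RefSeq promoters of 23 member genes, a CCAAT box stood in 21 promoters (63.6%), compared with 32.0% of all 35116 promoters of the same length. A GC box stood in 29 of the 33 (87.9%, 42.6% of all promoters). The E-box CACGTG stood in 4 (12.1%, 6.34% of all), those of INSIG1, SC5D and SCAP. The strict sterol regulatory element stood in 1 member promoter, that of SREBF2 (3.03%, 0.883% of all). These matches describe letters in a window and say nothing about binding.

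S100P itself checks the labels. Its log2 values were 5.80 and 5.95 in clone 1 and 5.36 and 5.45 in clone 5, against 5.65 and 6.01 in V3 and 4.65 in V1. The arms overlapped, and the log2 difference of 0.27 did not pass the test (SE 0.32, limma adjusted p = 0.846). It was -0.19 without V1, -0.16 without clone 1 and 0.99 without V3 (limma adjusted p = 0.117). S100P rose in clone 1 relative to the vector clones (0.64, limma adjusted p = 0.0164) and fell in V1 relative to V3 (-1.18, limma adjusted p = 0.0104), while clone 5 had 0.17 (limma adjusted p = 0.533). The arrays of clone 1 lay between those of V3, so the rise in clone 1 rested on the V1 array. Higher S100P in both clones against both vector clones was thus not seen in this probe set. Whether the probe set reads the transgene is not known, and groups are named by their labels throughout. The correlation across probe sets was 0.996 to 0.998 between arrays a and b of a clone. V1 stood apart from the other arrays at r = 0.982 to 0.990, and its array name begins with other letters than the other 6. The markers of an epithelial line, keratins and EPCAM, reached a mean log2 value of at least 6 in 5 of 5, with a lowest mean of 6.64. Of the mesenchymal markers 3 of 4 reached that level too, with a highest mean of 13.6 beside 13.2 for the epithelial markers. Hepatocyte, leukocyte and endothelial markers, at 0 of 5, 0 of 4 and 0 of 4, did not reach that level, and COL1A1 was the 1 fibroblast marker of 5 that did.

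Most of the members had a higher mean level on the S100P arrays than on the vector arrays, by small amounts. In bulk RNA of a culture, more cells with a transcript and more of it per cell cannot be told apart. Of the 26 members, MVD and SREBF1 rose in the S100P arm and 0 fell. These 2 genes are 7.69% of the members, where 1.03% of all genes were called higher and 0.526% lower. The test was limma over all 54613 probe sets, with the clone as a random block and a Benjamini-Hochberg adjusted p of 0.05 as the threshold. Of the 26 log2 differences 21 were above 0 and 5 below, with a median of 0.24, and the median over all genes was -0.00013. An unadjusted p under 0.05 was reached by 11 members (42.3%) and by 2977 of the 19775 genes (15.1%). In 8 members (30.8%) all S100P arrays lay above all vector arrays, and in 0 did they lie below, where 8.67% of all genes lay above and 5.51% below. Those 8 were MVD, FDPS, SREBF1, INSIG1, STARD4, LPIN1, ACACA and SCD. Since the members were chosen with earlier results of these data known, the shares describe them and are no independent test.

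**Figure D1:**
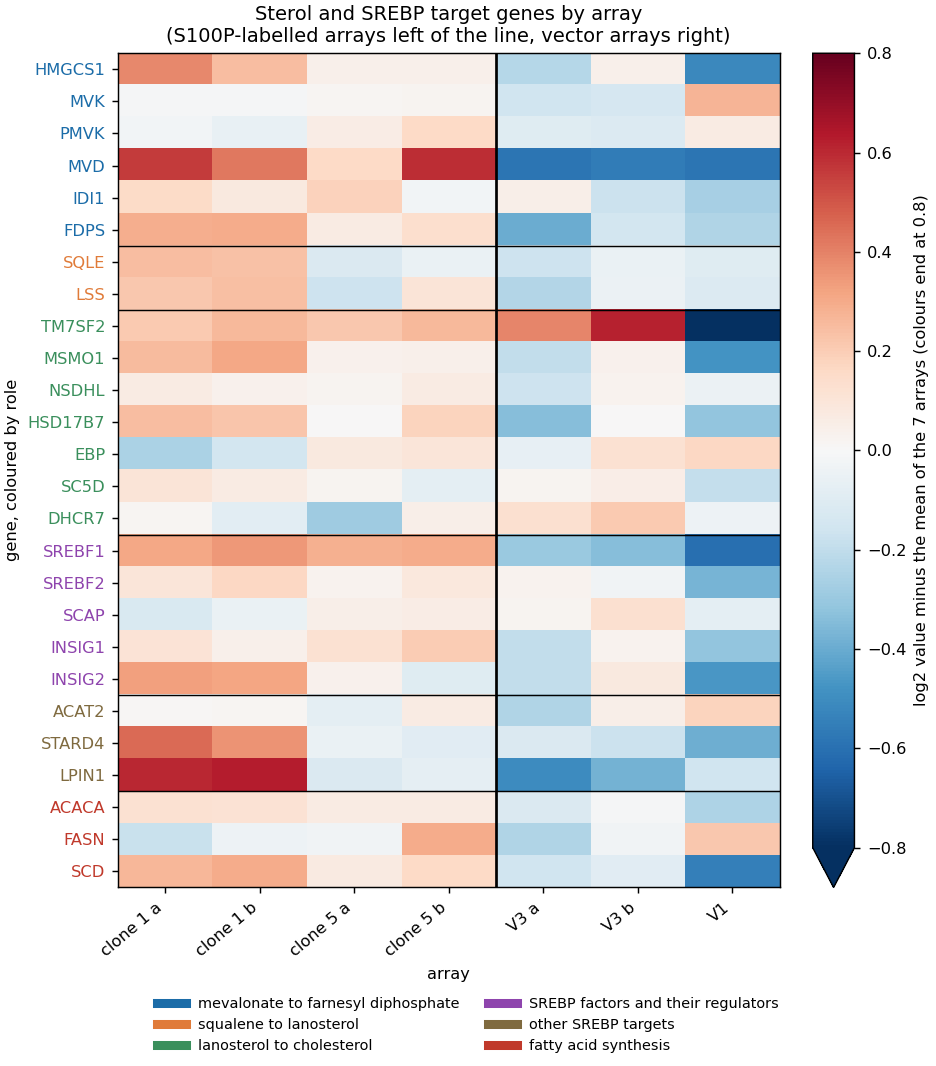
Log2 value of each of the 26 members on each of the 7 arrays, as the difference from that gene's mean over the arrays, ordered by role; colour runs from 0.8 below to 0.8 above the mean. Between 19 and 21 members were above their own mean on each S100P array, and 6, 12 and 5 were on V3 a, V3 b and V1.

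Seen array by array, the median difference of the members from their own 7-array mean was 0.18 and 0.19 in clone 1 and 0.04 and 0.07 in clone 5, against -0.16 and -0.02 in V3 and -0.25 in V1. Clone 1 was the highest and V1 the lowest, and V3 array b lay close to clone 5. The number of members above their own mean was 21 and 20 in clone 1 and 19 and 20 in clone 5, against 6 and 12 in V3 and 5 in V1. The plot of all members by array shows the same order of clones. The 2 arrays of V3 differed by more in this median than the 2 arrays of either S100P clone.

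The mevalonate steps carried 1 of the called genes. MVD, the decarboxylase that makes isopentenyl diphosphate, read 7.42 and 7.29 in clone 1 and 7.02 and 7.46 in clone 5, against 6.28 and 6.31 in V3 and 6.28 in V1. The vector arrays were nearly level, and the lowest S100P array was well above all of them. MVD rose by a log2 difference of 1.01, or 2.01-fold (SE 0.14, 95% confidence interval 0.70 to 1.32, limma adjusted p = 0.0166). The difference lay between 0.92 and 1.11 under the alternatives tried, but the call did not hold in all of them. The limma adjusted p was 0.0556 without clone 5 array b, 0.101 without V3 array a, 0.0938 without V3 array b, 0.0786 without clone V3 and 0.215 on the 4 clone means. Without V1 the log2 difference was 1.00 and the limma adjusted p 0.0108.

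FDPS, which makes farnesyl diphosphate, read 10.76 and 10.76 in clone 1 and 10.53 and 10.60 in clone 5, against 10.07 and 10.32 in V3 and 10.22 in V1. The arms did not overlap, but the log2 difference of 0.46 did not pass (SE 0.11, limma adjusted p = 0.112). HMGCS1, which makes the substrate of the rate-limiting step, read 7.97 and 7.83 in clone 1 and 7.62 and 7.62 in clone 5, against 7.36 and 7.62 in V3 and 7.07 in V1. V3 array b equalled clone 5, and the log2 difference of 0.43 did not pass (SE 0.16, limma adjusted p = 0.315). The kinases MVK and PMVK, which phosphorylate mevalonate and then phosphomevalonate, were nearly level between arms, with log2 differences of -0.01 (95% confidence interval -0.29 to 0.26) and 0.07 (-0.14 to 0.29). The isomerase IDI1 had a log2 difference of 0.24 (-0.02 to 0.50). The median over these 6 genes was 0.34, and their differences ranged from -0.01 to 1.01.

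**Figure D2:**
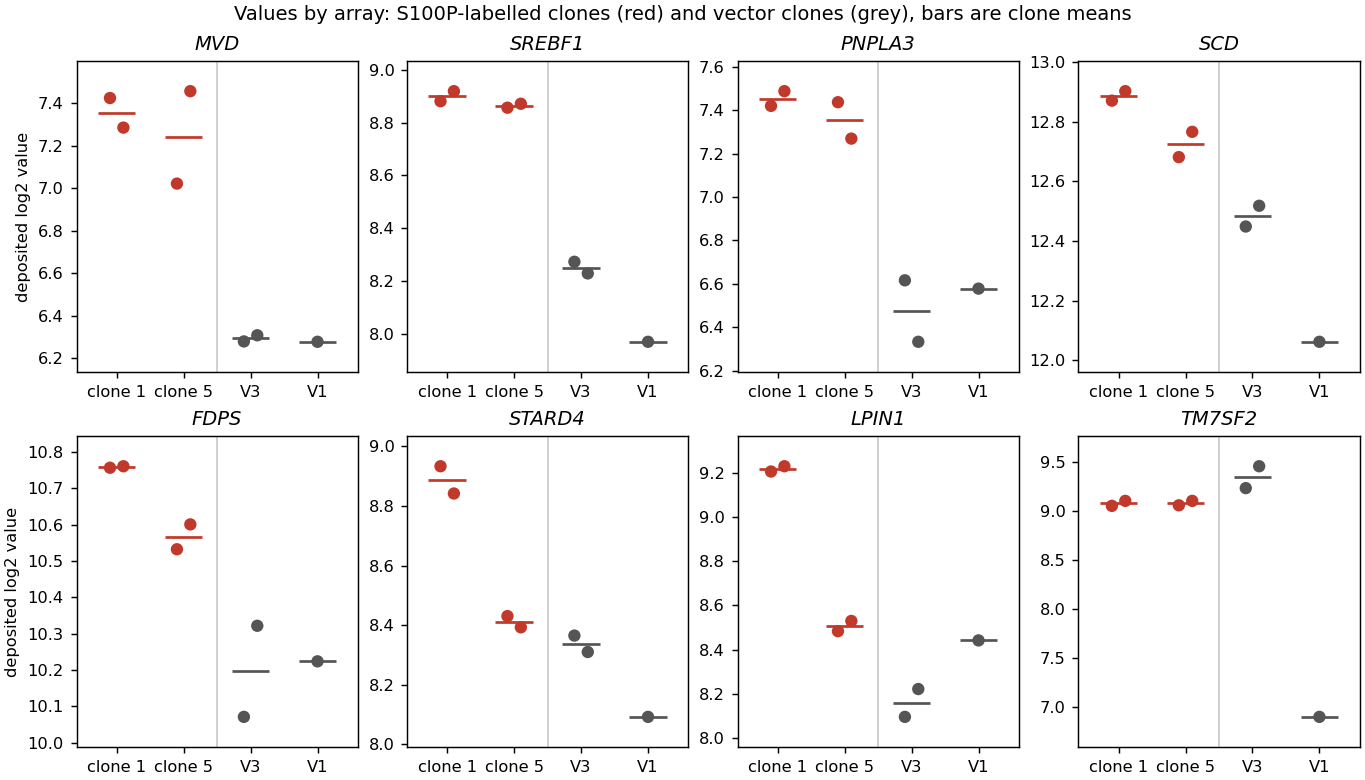
Log2 values of the members on which the results turn, 1 panel each, and of PNPLA3, described further on, with 1 point per array and a bar at each clone's mean, the S100P clones left of the vector clones. MVD and SREBF1 separate the arms widely, and TM7SF2 is low on the V1 array alone.

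In the steps after farnesyl diphosphate limma called 0 genes between arms, with 0 of 2 genes up to lanosterol and 2 of 7 after it at an unadjusted p under 0.05, which 15.1% of all genes reached. SQLE and LSS, which oxidise squalene and close the sterol rings, had log2 differences of 0.18 (95% confidence interval -0.08 to 0.45) and 0.23 (-0.07 to 0.52). Among the 7 genes between lanosterol and cholesterol the median was 0.10. MSMO1 and HSD17B7, which act in removing the methyl groups at carbon 4, had log2 differences of 0.40 (SE 0.14) and 0.39 (SE 0.13), and V3 array b overlapped the S100P arrays in both. NSDHL, of the same demethylation, had 0.10 and SC5D, which introduces a double bond, 0.08. EBP and DHCR7, a sterol isomerase and the last reductase of 1 branch, lay on the other side of 0, at -0.14 and -0.16.

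TM7SF2, a sterol reductase that acts just after lanosterol demethylation, read 9.05 and 9.10 in clone 1 and 9.06 and 9.10 in clone 5, against 9.23 and 9.45 in V3 and 6.90 in V1. Only the V1 array was low, and the S100P arrays lay below those of V3. The log2 difference between arms was 0.69 with a wide interval (-0.60 to 1.98, limma adjusted p = 0.743). It was -0.27 without V1 (limma adjusted p = 0.205) and 2.18 without V3 (limma adjusted p = 0.00449), so the 2 vector clones gave opposite directions. TM7SF2 fell in V1 relative to V3, with a log2 difference of -2.45 (SE 0.13, 95% confidence interval -2.75 to -2.15, limma adjusted p = 0.000678), from the 1 array of V1. That call ended without either array of V3 (limma adjusted p = 0.0564 without a and 0.0567 without b) and without either array of clone 1 (limma adjusted p = 0.0547 in both cases), while the log2 difference stayed between -2.56 and -2.33.

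Of the genes of the SREBPs themselves, SREBF1 was called and SREBF2 was not. SREBF1, which encodes SREBP-1, read 8.88 and 8.92 in clone 1 and 8.86 and 8.87 in clone 5, against 8.27 and 8.23 in V3 and 7.97 in V1. The 4 S100P arrays were nearly level, and V1 was the lowest array. SREBF1 rose by a log2 difference of 0.74, or 1.67-fold (SE 0.10, 95% confidence interval 0.51 to 0.97, limma adjusted p = 0.0156). The limma adjusted p was 0.0700 without clone 5 array b, 0.0507 without V3 array a, 0.0608 without V3 array b, 0.0515 without clone 1 and 0.364 on the 4 clone means. Without V1 the log2 difference was 0.63 (limma adjusted p = 0.00606). A second SREBF1 probe set had a log2 difference of 0.06 (limma adjusted p = 0.884), and with the mean of both probe sets the gene's log2 difference was 0.40 (limma adjusted p = 0.0532). Which of the SREBP-1a and SREBP-1c transcripts these probe sets read was not worked out.

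SREBF2, which encodes SREBP-2, read 8.11 and 8.18 in clone 1 and 8.04 and 8.10 in clone 5, against 8.04 and 7.98 in V3 and 7.64 in V1. Its log2 difference of 0.24 did not pass (SE 0.12, limma adjusted p = 0.481), and V3 array a equalled clone 5 array a. INSIG1, which retains SCAP in the endoplasmic reticulum and is itself an SREBP target, read 10.31 and 10.23 in clone 1 and 10.32 and 10.40 in clone 5, against 10.00 and 10.22 in V3 and 9.88 in V1. V3 array b came close to clone 1 array b without overlap, and the log2 difference of 0.29 did not pass (SE 0.11, limma adjusted p = 0.342). INSIG2, its relative, had a log2 difference of 0.36 (SE 0.17), and SCAP, the escort protein, -0.03 (95% confidence interval -0.25 to 0.19).

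**Figure D3:**
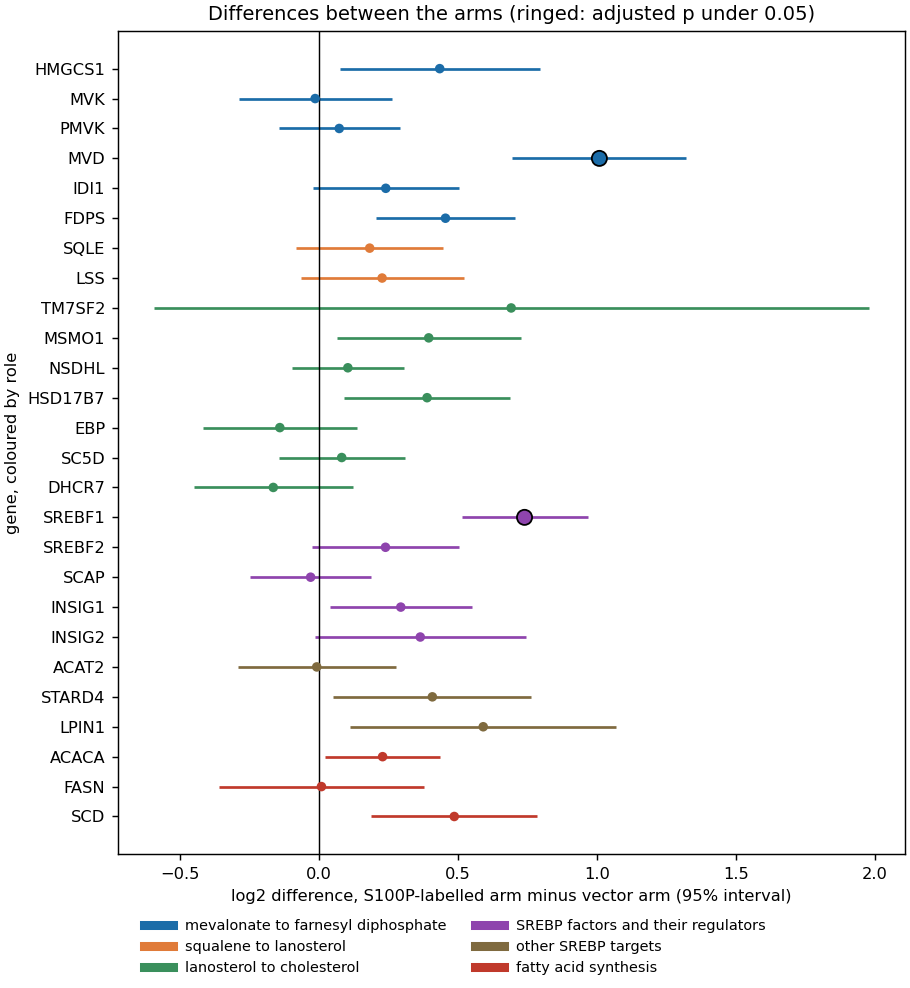
Log2 difference of the S100P arm minus the vector arm for each of the 26 members, by role, as the limma estimate with its 95% confidence interval; ringed points passed an adjusted p of 0.05. The 2 ringed points are MVD at 1.01 and SREBF1 at 0.74, and the interval of TM7SF2 runs from -0.60 to 1.98.

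Of the fatty acid genes, SCD, the desaturase that makes oleate, read 12.87 and 12.90 in clone 1 and 12.68 and 12.77 in clone 5, against 12.45 and 12.52 in V3 and 12.06 in V1. All S100P arrays were above all vector arrays, and the log2 difference of 0.49 did not pass (SE 0.13, limma adjusted p = 0.157). It passed without V3 (0.74, limma adjusted p = 0.0465). ACACA, which makes malonyl-CoA, had a log2 difference of 0.23 (SE 0.09, limma adjusted p = 0.363) with arms that did not overlap. FASN, which builds palmitate from it, had 0.01 (95% confidence interval -0.36 to 0.38). Of the other SREBP targets, ACAT2, the cytosolic thiolase at the head of the pathway, had -0.01 (-0.29 to 0.28).

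Other probe sets of the same genes give a second reading of each transcript. SCD had 4 probe sets, and in all 4 the S100P arrays lay above all vector arrays, with log2 differences of 0.49, 0.81, 0.62 and 0.75. The last passed (SE 0.13, limma adjusted p = 0.0437), but its type can bind other transcripts, and probe sets of 1 gene can share much of their target. The 4 probe sets of SQLE disagreed, at 0.18, 0.46, -0.03 and 0.19. In the second of these the arms did not overlap (SE 0.11, limma adjusted p = 0.120). IDI1 ranged from 0.08 to 0.52 over 4 probe sets, LPIN1 from 0.31 to 0.65 over 3 and SREBF2 from 0.17 to 0.27 over 3. In the SREBF2 probe set at 0.27 the arms did not overlap (SE 0.10, limma adjusted p = 0.321). HMGCS1 had 0.43 and 0.28, and in the second the arms did not overlap either (SE 0.10, limma adjusted p = 0.314). ACACA had 0.23 and -0.09, so its separation held in 1 of 2 probe sets. INSIG1 had 0.29, 0.20 and -0.02, and the arms overlapped in the last. In LPIN1 they overlapped in 1 of 3. MVD and TM7SF2 had 1 probe set each, and no second reading could be had.

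**Figure D4:**
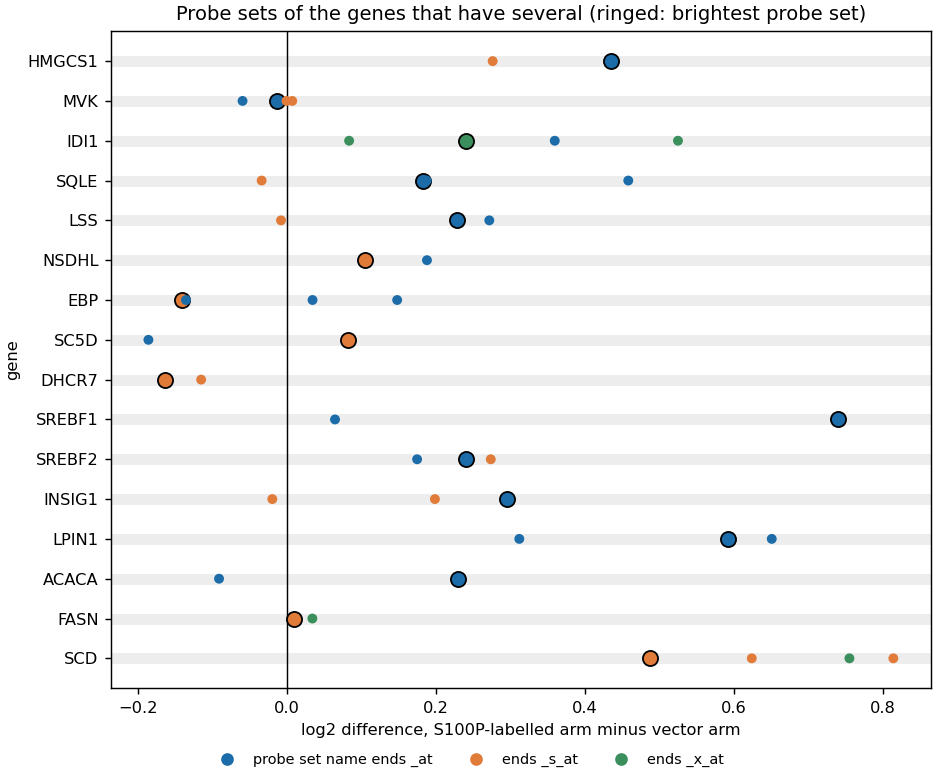
Log2 difference of the S100P arm minus the vector arm for the probe sets of the 16 members that have several, with 1 row per gene; the ring marks the brightest probe set, which represents the gene, and colours give the type of probe set. The 4 probe sets of SCD lie between 0.49 and 0.81, and the 2 of SREBF1 lie at 0.74 and 0.06.

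Set against the mean of both vector clones, the S100P clones differed in how many members were called. In clone 1, 13 of 26 members rose (50%) and 0 fell, where 11.7% of all genes were called higher and 5.75% lower. In clone 5, 4 of 26 rose (15.4%) and 0 fell, where 5.65% of all genes were called higher and 2.94% lower. These fits take the spread between arrays of 1 clone, with 3 residual degrees of freedom, so they compare clones and not conditions, and both use the same vector arrays. The 13 were HMGCS1, MVD, FDPS, SQLE, TM7SF2, MSMO1, HSD17B7, SREBF1, SREBF2, INSIG2, STARD4, LPIN1 and SCD, and the 4 were MVD, TM7SF2, SREBF1 and SCD. Both lists rest on the brightest probe sets. Another SQLE probe set was called in clone 5 (0.53, limma adjusted p = 0.0332) and not in clone 1 (0.39, limma adjusted p = 0.0651). The remaining SQLE probe sets had -0.28 and 0.28 in clone 5, and 0.18 and 0.06 in clone 1. The second SREBF1 probe set had 0.12 in clone 1 and 0.0034 in clone 5. An IDI1 probe set other than the brightest was called in clone 1 (0.49, limma adjusted p = 0.0413), where its others had 0.28, 0.13 and 0.30. The other SCD probe sets had 0.75, 0.69 and 0.50 in clone 5 (limma adjusted p = 0.00595, 0.00883 and 0.0729). The median log2 difference of the members was 0.33 in clone 1 and 0.21 in clone 5, beside -0.02 and 0.01 over all genes. Without 1 of its own arrays clone 1 had 2 called members in either case. It had 7 without either array of clone 5, 9 without V3 array a, 12 without V3 array b and 6 against V3 alone. Clone 5 had 0 by limma without array a or without array b (7 and 6 at an unadjusted p under 0.05), 1 without either array of clone 1, 2 without either array of V3 and 2 against V3 alone.

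MVD rose in both S100P clones, by a log2 difference of 1.07 in clone 1 and 0.95 in clone 5 (limma adjusted p = 0.00299 and 0.00969). SREBF1 did so too, by 0.79 and 0.75 (limma adjusted p = 0.00116 and 0.00305). Against V3 alone the 2 genes were still called in both clones, MVD at 1.06 in clone 1 and 0.95 in clone 5 (limma adjusted p = 0.00621 and 0.0161) and SREBF1 at 0.65 and 0.61 (limma adjusted p = 0.00501 and 0.0105). With single arrays left out fewer of these calls held. MVD in clone 5 was not called without any 1 array of clone 1, clone 5 or V3 (limma adjusted p = 0.0526 to 0.0959). In clone 1 it was not called without array a (limma adjusted p = 0.111), array b (0.0801) or V3 array a (0.0508). SREBF1 in clone 5 was not called without array a (limma adjusted p = 0.0648) or array b (0.0539), and in clone 1 it was called in all 6 such fits. SCD rose by 0.61 in clone 1 and 0.45 in clone 5 (limma adjusted p = 0.00365 and 0.0227), and against V3 alone clone 5 had 0.24 (limma adjusted p = 0.231). TM7SF2 was called at 0.96 in both clones, but against V3 alone it had -0.27 in clone 1 and -0.26 in clone 5 (limma adjusted p = 0.222 and 0.260), so that call rested on the V1 array. SCD in clone 5 was not called in any of the 6 fits without 1 array (limma adjusted p = 0.0607 to 0.107), and in clone 1 SCD and TM7SF2 were not called without either array of clone 1 (limma adjusted p = 0.0590 to 0.0797). TM7SF2 in clone 5 was not called without either array of clone 1 or of clone 5 (limma adjusted p = 0.0533 to 0.0775).

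LPIN1 and STARD4 separated the S100P clones from each other. LPIN1, a phosphatidate phosphatase and SREBP target, read 9.20 and 9.23 in clone 1 and 8.48 and 8.53 in clone 5, against 8.10 and 8.22 in V3 and 8.44 in V1. Both arrays of clone 1 stood far above the rest, and clone 5 was just above V1. Between arms the log2 difference was 0.59 (SE 0.21, limma adjusted p = 0.300), and it passed without clone 5 (0.97, limma adjusted p = 0.0256). LPIN1 fell in clone 5 relative to clone 1, with a log2 difference of -0.71 (SE 0.09, 95% confidence interval -0.92 to -0.50, limma adjusted p = 0.0148). Against the vector clones it rose by 0.92 in clone 1 (limma adjusted p = 0.000863) and had 0.21 in clone 5 (limma adjusted p = 0.230).

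STARD4, a carrier of cholesterol between membranes, read 8.93 and 8.84 in clone 1 and 8.43 and 8.39 in clone 5, against 8.36 and 8.31 in V3 and 8.09 in V1. Between arms its log2 difference was 0.41 (SE 0.16, limma adjusted p = 0.344). It fell in clone 5 relative to clone 1, with a log2 difference of -0.48 (SE 0.09, 95% confidence interval -0.69 to -0.27, limma adjusted p = 0.0472). These 2 of 26 members (7.69%) were called lower and 0 higher, where 2.35% of all genes were called lower and 0.673% higher in clone 5 relative to clone 1. Neither call held when any 1 array of clone 1, clone 5 or V3 was left out, with limma adjusted p between 0.0754 and 0.332 for LPIN1 and between 0.113 and 0.460 for STARD4. MVD and SREBF1 differed between the S100P clones by -0.12 (95% confidence interval -0.46 to 0.23) and -0.04 (-0.24 to 0.16).

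**Figure D5:**
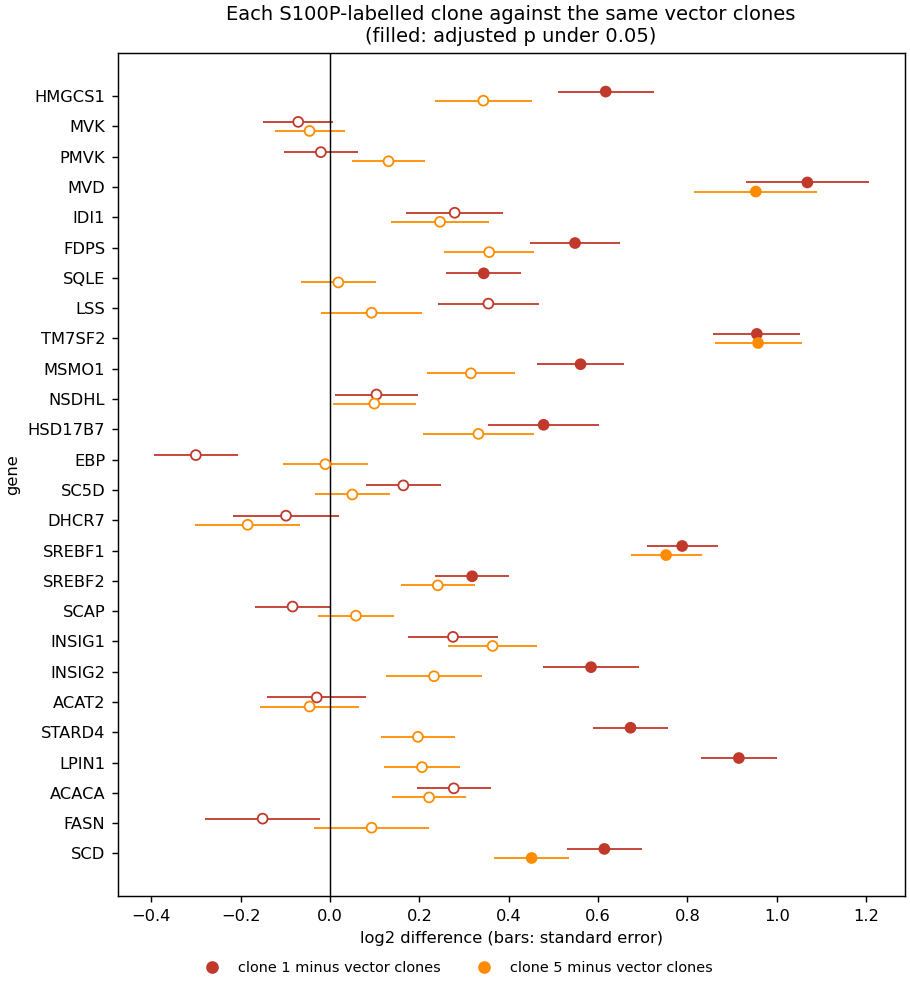
Log2 difference of clone 1 and of clone 5 minus the mean of both vector clones for each of the 26 members, as limma estimates with bars of 1 standard error; filled points passed an adjusted p of 0.05, and both contrasts use the same vector arrays. LPIN1 lies at 0.92 in clone 1 and 0.21 in clone 5, while MVD lies at 1.07 and 0.95.

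The vector clones also differed from each other. Of the 26 members TM7SF2 fell in V1 relative to V3 (3.85%) and 0 rose, where 5.08% of all genes were called lower and 2.64% higher. The share of members lower was near that of all genes. The median log2 difference of the members in V1 relative to V3 was -0.17, with 10 above 0 and 16 below. SREBF1 had -0.28 (95% confidence interval -0.53 to -0.04, limma adjusted p = 0.190) and SCD -0.42 (-0.68 to -0.17, limma adjusted p = 0.0742). MVK lay the other way at 0.42 (0.17 to 0.66, limma adjusted p = 0.0648). MVD had -0.02 (-0.44 to 0.41). These values and counts are those of each gene's brightest probe set. The other probe sets of SCD ran from -0.82 to -0.31, and those of MVK from 0.10 to 0.52. LSS had 0.03 in its brightest probe set, and 1.06 and 0.23 in its others. The probe sets of SCD at -0.82, MVK at 0.52 and LSS at 1.06 also passed the threshold, from the 1 array of V1. Which members were called lower or higher in V1 thus depended on the probe set.

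Other genes of lipid metabolism added 1 called gene between arms. Of 12 measured other SREBP-driven lipid genes 1 rose (8.33%) and 0 fell, with a median of 0.12. Of all genes 1.03% were called higher and 0.526% lower. An unadjusted limma p under 0.05 was reached by 4 of the 12 (33.3%), beside 15.1% of all genes. PNPLA3, a lipid droplet protein and known SREBP-1c target, read 7.42 and 7.49 in clone 1 and 7.44 and 7.27 in clone 5, against 6.62 and 6.33 in V3 and 6.58 in V1. The arms were far apart, and PNPLA3 rose by a log2 difference of 0.89, or 1.85-fold (SE 0.12, 95% confidence interval 0.62 to 1.15, limma adjusted p = 0.0143). The limma adjusted p was 0.0576 without clone 5 array b and 0.244 on the 4 clone means. Of 12 genes of SREBP transport, cleavage and degradation 0 were called, with a median of 0.10. MBTPS2, the protease of the second cleavage, had 0.41 (SE 0.11, limma adjusted p = 0.177) and ERLIN2, which acts in degradation at the endoplasmic reticulum, 0.63 (SE 0.21, limma adjusted p = 0.257), both with arms that did not overlap.

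The branches that use or remove the pathway's products showed 0 called genes between arms. The 11 genes of the isoprenoid branch had a median of -0.07, with PDSS1, which makes the ubiquinone side chain, at -0.68 (limma adjusted p = 0.217) and ICMT, which methylates prenylated proteins, at -0.32 (limma adjusted p = 0.404). The 6 genes of LXR response and sterol efflux had a median of 0.09. In this list ABCA1, the cholesterol exporter, had 0.54 and SMPDL3A 0.56, and both were low on the V1 array alone (5.09 and 4.42). The 11 genes of sterol transport and esterification had a median of -0.06, with OSBP, a sterol carrier, at 0.37 and LIPA, the lysosomal lipase, at -0.31. At an unadjusted p under 0.05 there were 4 of the SREBP transport genes, 2 of the isoprenoid genes, 0 of the efflux genes and 4 of the sterol transport genes. These are 33.3%, 18.2%, 0% and 36.4% of the lists, where 15.1% of all genes reached that level, so the isoprenoid share was near that of all genes.

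In stress and cell cycle genes too, clone 1 and V1 stood at the extremes. The median of 15 genes of the unfolded protein and ATF4 stress responses, as a difference from each gene's 7-array mean, was 0.75 and 0.70 in clone 1 and -0.05 and -0.02 in clone 5, against -0.22 and -0.03 in V3 and -0.72 in V1. The median of 15 cell cycle genes ran the other way, at -0.44 and -0.40 in clone 1 and 0.01 and 0.05 in clone 5, against -0.05 and 0.09 in V3 and 0.71 in V1. Between arms 0 genes of either list were called (7 and 6 at an unadjusted p under 0.05, or 46.7% and 40%, beside 15.1% of all genes), with median log2 differences of 0.76 and -0.48. The largest were ATF3 at 1.70 and DDIT4 at 1.37, both stress-induced. ATF3 had 0.05 without clone 1 and was called without clone 5 (3.18, limma adjusted p = 0.0113), and DDIT4 had 0.68 without clone 1 and 2.24 without V3. Of the cell cycle genes the largest were MCM5 at -0.80 and PLK1 at -0.73, of replication and mitosis. In clone 1 relative to the vector clones 13 of the stress genes were called higher, 1 lower and 15 of the cell cycle genes lower. Of all genes 11.7% were called higher and 5.75% lower in clone 1. In clone 5, 6 of the stress genes were called higher and 6 of the cell cycle genes lower. Of all genes 5.65% were called higher and 2.94% lower in clone 5. The vector clones differed too, with median log2 differences of -0.62 and 0.69 for the 2 lists in V1 relative to V3. In both lists the arrays of clone 5 lay closer to V3 than to V1. Clone 1 thus stood highest and V1 lowest in stress genes as in members, and their part in the members' result was not tested.

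The summed log2 level of the 5 epithelial markers was 49.3 to 52.5 on S100P arrays, against 52.4 to 55.3 on vector arrays, with 0 of 5 called by limma and 3 at an unadjusted p under 0.05. KRT8 had a log2 difference of -0.95 and KRT7 of -0.87 (limma adjusted p = 0.0667), and over the alternatives KRT8 ran from -1.59 to -0.49 and KRT7 from -1.04 to -0.19, called in 4 of 19. In clone 1 relative to the vector clones 4 of 5 were called lower (KRT7, KRT8, KRT18 and KRT19, by limma), and in clone 5 KRT7 was. In V1 relative to V3, KRT8 and KRT19 were called lower, and in clone 5 relative to clone 1, KRT8, KRT18 and KRT19 were called higher. The part of these epithelial markers in the members' result was not tested. In each of the other marker lists 0 genes had an unadjusted p under 0.05 between arms. The sums of the 4 mesenchymal markers were 33.0 to 35.7 on S100P arrays, against 35.0 to 35.4 on vector arrays, with 0 called, CDH2 at -0.89 and FN1 at -0.07. CDH2 was called without clone 1 (-1.99, limma adjusted p = 0.0036), had 0.15 without clone 5, and was called lower in clone 5 relative to the vector clones (-1.93, limma adjusted p = 0.000187) and to clone 1 (-2.13, limma adjusted p = 0.000959). Hepatocyte markers summed to 20.8 to 21.5 on S100P arrays, against 21.0 to 21.9 on vector arrays, with 0 called, ALB at -0.22 and SERPINA1 at -0.09. For leukocyte markers the sums were 14.8 to 15.9 on S100P arrays, against 15.2 to 15.3, with 0 called, CD3E at 0.12 and PTPRC at 0.05. In clone 5 CD14 was called higher than in the vector clones (0.39, limma adjusted p = 0.0491) and than in clone 1 (0.74, limma adjusted p = 0.0156). CD14, KRT18 and KRT19 are named after their values were seen. Fibroblast markers summed to 22.0 to 23.1 on S100P arrays, against 21.6 to 22.4, with 0 called, COL1A1 at 0.32 and LUM at 0.14. COL1A1 had 0.11 without V3 and 2.01 with the mean of its probe sets (limma adjusted p = 0.0594), and it was called higher in clone 1 relative to the vector clones (0.43, limma adjusted p = 0.0281). Endothelial markers summed to 15.4 to 16.7 on S100P arrays, against 15.6 to 16.0, with 0 called, VWF at -0.16 and CDH5 at 0.13.

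RNA quality was read from the control probe sets at both ends of ACTB and GAPDH. For ACTB, the 3′ end minus the 5′ end came to 0.53 (log2) and 0.44 in clone 1 and 0.29 and 0.27 in clone 5, against 0.28 and 0.32 in V3 and 0.18 in V1. For GAPDH the same measure was 0.08 and 0.08 in clone 1 and 0.07 and 0.06 in clone 5, against 0.09 and 0.14 in V3 and 0.01 in V1. Clone 1 was highest and V1 lowest in the ACTB measure, as in the members' medians, while clone 5 and V3, which lay between them, overlapped in the ACTB measure. The part of RNA quality in the result was not tested.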

How the data were processed

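RNA of 7 Panc1 arrays was compared between 4 arrays of 2 clones labelled S100P overexpressing and 3 arrays of 2 vector clones, grouped from the sample labels. The authors deposited log2 values from RMA, per the submitters' processing notes. RMA corrects background, normalizes between arrays and joins probes into probe sets, and it can compress differences of dim probe sets. Their scale is not stated and was taken as log2 from their range. The sources used here do not give the version of RMA, nor whether all arrays went through it at once. Detection calls were not used, so absence of a transcript was not judged, and precision is limited by the number of arrays. Array medians lay between 4.51 and 4.58, and at most 9.21% of values were identical on 2 arrays.

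Of 54675 probe sets 62 were controls, and 54613 were tested. The platform annotation gave 41091 of these 1 symbol, 1801 several and 11721 none, and only the first kind was named. The probe set of highest mean represented a gene. Tests used limma 3.58.1 with statmod 1.5.0 in R 4.3.3, two-sided, with Benjamini-Hochberg adjustment over all tested probe sets and a threshold of 0.05. The comparison of arms had the clone as a random block (consensus correlation within a clone 0.287). Clone contrasts came from a fit of clone as the fixed effect, in which V1 with 1 array is assumed to vary like the rest. Since no label tells whether a and b were grown as separate cultures, p-values measure only how these arrays and clones spread, in part perhaps for technical reasons. The letters a and b did not pair the arrays: deviations of same-letter arrays correlated at 0.05, -0.08 and 0.06.

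All members were described, with up to 4 genes of each other list that passed between arms, or up to 2 of largest difference as values where none passed. The lists were other SREBP-driven lipid genes, SREBP transport, cleavage and degradation, the isoprenoid branch, LXR and sterol efflux, sterol transport and esterification, unfolded protein and ATF4 stress, cell cycle, and markers of cell types. Members and lists were chosen with earlier results of these data known. Promoters came from RefSeq (GRCh38.p14). Alternatives were other blocks, left-out arrays and clones, quantile normalization, median centring, a mean log2 filter of 6, an intensity trend and other choices of probe set. A simulation changed 200 of 54613 probe sets between arms. Its clone effects followed the consensus correlation of 0.287 for every probe set, with normally distributed noise, as the fit assumes. In it 99% of changes of log2 1 and 100% of log2 2 were recovered, with 26 false calls. Recovery for genes whose clones differ more than that is not known from it. These false calls were a larger share of all calls than the threshold on the adjusted p allows on average. Changes below log2 1 were not simulated. Recovery at the size of the members' median log2 difference of 0.24 is therefore not known. Figures used matplotlib 3.10.9.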

Additional observations from a re-analysis of the deposited data

Results flagged for a closer look

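Both results that stood out are differences between the S100P clones, found by the limma contrast of clone 5 minus clone 1. LPIN1 had a log2 difference of -0.71 and STARD4 one of -0.48, so both were lower in clone 5 than in clone 1 although the clones carry the same vector. Neither call held when any 1 array of clone 1, clone 5 or V3 was left out, as given with their values above.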

How the results depend on the processing

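Between arms 611 probe sets were called. The count was 8 on clone means, 1103 with no clone block, 1675 without V3, 1355 without clone 5, 301 with the filter on dim probe sets and 159 to 1708 with 1 array left out (1708 without V1). With the array letter as a replicate block and V1 left out it was 917. Of the 2 called members 0 were left on clone means, 1 without clone 1, 1 with the mean of probe sets and 0 to 2 with 1 array left out. The count of 0 came without clone 5 array b, V3 array a or V3 array b, and limma then gave 9, 7 and 11 members at an unadjusted p under 0.05 (6 on clone means). The members' median of 0.24 was 0.39 without V3. The 8 members whose arms did not overlap became 17 without V3 (27.2% of all genes) and 18 without clone 5 (20.5%). They were 10 without V1 (13.7%) and 8 without clone 1 (14.4%). Below the vector arrays, where there had been 0, there were 3 without V3 (30.2% of all genes), 1 without clone 5 (17.2%), 2 without V1 (9.63%) and 0 without clone 1 (10.7%), settings chosen after seeing the data.

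For clone 1 the 7012 probe sets called were 4114 against V3 alone and 772 to 5106 with 1 array left out, and the 13 members were 6 and 2 to 12. For clone 5 the 3684 were 2292 against V3 alone and 178 to 1345 with 1 array left out, and the 4 members were 2 and 0 to 2 (9 with the filter). For clone 5 minus clone 1 the 1195 were 2845 with the filter and 0 to 1195 with 1 array left out (4468 to 11537 at an unadjusted p under 0.05 where limma called 0). Its 2 members were 1 after quantile normalization and 0 to 2 with 1 array left out. For V1 minus V3 the 3195 were 4930 with the filter and 0 to 909 with 1 array left out, and the 1 member was 7 with the filter, 2 after quantile normalization and 0 to 1 with 1 array left out.

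Log2 differences that changed sign were small or not called, except for TM7SF2, which had -0.27 in clone 1 and -0.26 in clone 5 against V3 alone. Between arms FASN had -0.029 on clone means, -0.011 after median centring, -0.017 after quantile normalization and -0.012 with the filter. Without V3 the values were PTPRC -0.14, PMVK -0.028, SCAP 0.064 and FASN -0.20. Without clone 1 the values were S100P -0.16, FN1 0.0023, MVK 0.068, EBP 0.027, SC5D -0.013, SCAP 0.015 and ACAT2 0.030. Without clone 5 the values were CDH2 0.15, MVK 0.0098, ACAT2 0.024 and FASN -0.083. With no clone block the values were MVK 0.011 and ACAT2 0.0082. With the mean of probe sets the values were FN1 0.024 and SC5D -0.049. Without _s and _x probe sets the values were PDSS1 0.011, FN1 0.029, EBP 0.034 and SC5D -0.19. With the replicate block the values were S100P -0.19, SMPDL3A -0.059, ABCA1 -0.0033, MVK 0.15, TM7SF2 -0.27, SC5D -0.0083 and ACAT2 0.10. With 1 array left out the ranges were -0.0033 to 0.69 for ABCA1, -0.11 to 0.10 for ACAT2, -0.091 to 0.15 for FASN, -0.065 to 0.15 for MVK, -0.19 to 0.49 for S100P, -0.0083 to 0.12 for SC5D, -0.091 to 0.014 for SCAP, -0.24 to 0.012 for SERPINA1, -0.059 to 0.79 for SMPDL3A and -0.27 to 1.01 for TM7SF2. The cause of these changes was not tested. The small number of arrays and clones limits every statement here.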
